A study of Homo sapiens with 5 samples.

Results

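Smad3 binding after polyI:C was compared between 2 states of BT549 cells, an established human line of basal-like breast cancer. In one state the cells received TGF-beta, and in the other they carried constitutively active Smad3 (caSmad3) and received none. The comparison takes every peak of both anti-Smad3 lists, 786 from the control cells and 6041 from the caSmad3 cells, which together are 6827 of the 19372 peaks in the 5 lists analysed. A peak was called shared when it had at least 1 base in common with a peak of the other list, and otherwise it belonged to 1 list only. The control cells carried an HA vector, were transfected with polyI:C and were stimulated with TGF-beta at 1 ng/ml for 1.5 h. The caSmad3 cells carried caSmad3, were transfected with polyI:C and had no stimulation. Both vectors were lentiviral and stably expressed, and the sources used here do not say which promoter drives them or whether each line was 1 clone. The remaining lists serve only as reference. They are Smad3 in HA cells after mock transfection and the same TGF-beta treatment (353 peaks), IRF3 in unstimulated HA cells after polyI:C (4125 peaks) and IRF3 in unstimulated caSmad3 cells after polyI:C (8067 peaks).

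With 1 library in each group there is no test between the conditions, and the effects of caSmad3 and of the missing TGF-beta cannot be told apart. Intervals are 95% Clopper-Pearson intervals and cover counting error only. The lists hold positions without scores or read counts, so depth is unknown and a peak absent from a list is not a site without binding. Covered length was 175745 bases in the control list and 1378193 in the caSmad3 list, with median widths of 154.5 and 178 bases. In both lists the narrowest peak was 99 bases, the width of 85 control peaks and 499 caSmad3 peaks. The same anti-Smad3 antibody was used throughout, and whether it separates caSmad3 from the cells' own Smad3 is not stated in the labels. Peak lists carry no expression, so the cell type could not be checked that way. Of 7 luminal or epithelial markers, 2 (CDH1 and GATA3) had a caSmad3 peak within 10 kb, as did 2 of 7 mesenchymal or basal-like markers (VIM and FN1) and 0 of 4 leukocyte markers, and 0 of these 18 had a control peak. Chromosomes 3, 8, 9 and 20 held 32.1% of control peaks and 30.2% of caSmad3 peaks beside 15.5% of protein-coding genes.

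As background, TGF-beta binds a pair of serine/threonine kinase receptors, which phosphorylate Smad3 near its C-terminus. Phosphorylated Smad3 joins Smad4, enters the nucleus and binds short DNA elements, usually beside other factors such as AP-1 (JUN and FOS proteins). A constitutively active form carries the signal without the ligand. PolyI:C imitates viral double-stranded RNA and activates IRF3, which binds elements with repeated GAAA at interferon genes and at antiviral genes such as ISG15. Active IRF3 can bind Smad3 and hold back TGF-beta responses. The labels state that caSmad3 was used to rescue the inhibition by polyI:C, which is the question behind setting these lists side by side.

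The regions are shown first where they fall on the promoters of genes that recur below. RefSeq sequence (GRCh38.p14) is given for the 250 bases before the start site, read in the direction of transcription. Capitals mark bases that lie under a peak of both lists, or of the single list where only 1 has a peak. GADD45B (a stress-response gene induced by TGF-beta), JUN (the AP-1 subunit) and ID1 (an inhibitor of helix-loop-helix factors and a classical Smad target) were covered in both lists:
GADD45B: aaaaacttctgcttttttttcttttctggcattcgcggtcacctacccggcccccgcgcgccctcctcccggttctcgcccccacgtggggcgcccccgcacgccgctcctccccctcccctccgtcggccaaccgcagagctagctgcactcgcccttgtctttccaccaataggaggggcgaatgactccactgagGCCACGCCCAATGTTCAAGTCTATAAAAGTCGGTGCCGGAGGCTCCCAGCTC
JUN: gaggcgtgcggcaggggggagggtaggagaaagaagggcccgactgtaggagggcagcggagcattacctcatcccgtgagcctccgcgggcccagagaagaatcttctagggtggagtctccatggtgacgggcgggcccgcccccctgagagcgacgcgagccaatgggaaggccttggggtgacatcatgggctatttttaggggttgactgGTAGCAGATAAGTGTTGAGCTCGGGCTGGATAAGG
ID1: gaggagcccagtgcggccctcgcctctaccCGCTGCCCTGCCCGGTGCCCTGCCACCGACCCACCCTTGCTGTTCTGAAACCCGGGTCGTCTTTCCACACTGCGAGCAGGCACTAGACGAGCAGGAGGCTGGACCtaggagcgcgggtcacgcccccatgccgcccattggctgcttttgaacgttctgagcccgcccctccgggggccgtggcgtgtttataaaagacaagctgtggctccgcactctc
The GADD45B stretch is chr19:2475877-2476126, plus strand, with 52 bases under both lists. For JUN it is chr1:58784048-58784297, minus strand, with 35 such bases. For ID1 it is chr20:31605039-31605288, plus strand, and its 105 capital bases are the whole of a control peak that lies inside a 641-base caSmad3 peak. That peak holds ctagac, the complement of the Smad element GTCTAG, 138 bases before the start.

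COL7A1 encodes type VII collagen, and TCF3 a helix-loop-helix factor of the E2A gene. Among genes of the TGF-beta, AP-1 and immediate early lists with a known start site, these had the widest promoter peaks of caSmad3 cells alone. TGM2, without a known strand, had a wider caSmad3-only peak, of 675 bases, over one end of the gene. ISG15 encodes a ubiquitin-like antiviral protein and was covered in the control list alone. It was chosen after its values were seen:
COL7A1: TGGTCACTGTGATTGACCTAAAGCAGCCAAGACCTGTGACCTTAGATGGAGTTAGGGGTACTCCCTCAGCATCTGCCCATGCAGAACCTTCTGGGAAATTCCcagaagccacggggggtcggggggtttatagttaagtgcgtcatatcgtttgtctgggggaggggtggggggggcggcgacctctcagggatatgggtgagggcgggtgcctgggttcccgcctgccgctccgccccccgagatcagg
TCF3: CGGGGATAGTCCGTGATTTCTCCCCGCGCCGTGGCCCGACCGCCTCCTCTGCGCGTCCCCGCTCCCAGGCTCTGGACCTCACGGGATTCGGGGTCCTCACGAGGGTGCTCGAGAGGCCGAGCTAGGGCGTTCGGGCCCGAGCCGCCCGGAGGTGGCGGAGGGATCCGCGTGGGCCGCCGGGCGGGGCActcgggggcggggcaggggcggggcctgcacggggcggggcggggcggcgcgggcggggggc
ISG15: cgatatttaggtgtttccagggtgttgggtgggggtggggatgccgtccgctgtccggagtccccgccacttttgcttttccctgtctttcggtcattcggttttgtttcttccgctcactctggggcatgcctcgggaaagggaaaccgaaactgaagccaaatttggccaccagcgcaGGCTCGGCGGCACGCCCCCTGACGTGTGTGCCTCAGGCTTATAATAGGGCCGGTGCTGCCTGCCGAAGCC
COL7A1 is chr3:48595330-48595579, minus strand, with 102 bases under the caSmad3 peak. TCF3 is chr19:1652616-1652865, minus strand, with 188. ISG15 is chr1:1013247-1013496, plus strand, with 70 bases under the control peak. The ISG15 stretch held 3 overlapping matches to the IRF motif GAAANNGAA, beginning 113, 107 and 101 bases before the start, all upstream of the edge of the Smad3 peak.

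Most control peaks were also listed in caSmad3 cells, and most caSmad3 peaks had no counterpart in control cells. Of the 786 control peaks, 679 were shared (86.4%, interval 83.8 to 88.7), and 107 were not. Of the 6041 caSmad3 peaks, 650 were shared (10.8%, 9.99 to 11.6) and 5391 were not. When the caSmad3 list was reduced to its 786 widest peaks, all of at least 373 bases, 49.7% of control peaks were shared, and 45.3% of those 786 caSmad3 peaks were. When overlap over 50% of both peaks was asked, the shares were 39.9% of the control list and 5.20% of the caSmad3 list. Of the 107 control-only peaks, 21 lay within 500 bases of a caSmad3 peak, 25 within 1000 and 35 within 10000, and their median distance was 91381 bases.

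Sharing followed peak width in both lists. With each list cut into 10 equal groups by width, the narrowest group of control peaks was all of 99 bases, and 49 of 79 were shared (62.0%). In the widest group, of 417 to 1891 bases, 78 of 78 were. In caSmad3 cells the shares ran from 13 of 605 (2.15%) in the narrowest group to 308 of 604 (51.0%) in the widest, of 411 to 1952 bases. The median width of control-only peaks was 108 bases (quartiles 99 and 131.5), and 34 of the 107 (31.8%) had the minimum width, against 51 of the 679 shared ones (7.51%). Of the 110 control peaks of 355 bases or more, 109 were shared, and the exception was the peak over the start of ISG15. CaSmad3-only peaks had a median of 167 bases and a maximum of 1203, while the shared caSmad3 peaks had a median of 399.5.

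**Figure D1:**
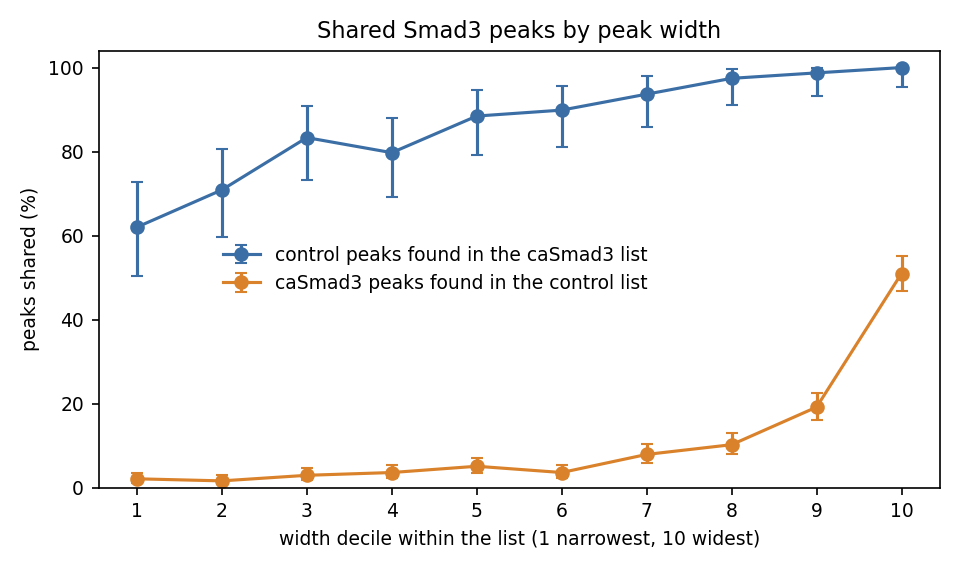
Share of peaks (%) found in the other list by peak width, with each list cut into 10 equal groups, with 95% Clopper-Pearson intervals as bars. Control peaks (blue) run from 62.0% in the narrowest group to 100% in the widest, and caSmad3 peaks (orange) from 2.15% to 51.0%.

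At shared sites the caSmad3 peak was usually the wider. Each of the 679 shared control peaks was set beside the widest caSmad3 peak that overlapped it, a choice that favours the caSmad3 side for the 9 control peaks with several partners. In addition, 71 control peaks shared 34 caSmad3 peaks among them, so that 1 caSmad3 width was set against several narrower pieces. The caSmad3 peak was wider in 608 pairs (89.5%), equal in 5 and narrower in 66, with medians of 165 and 411 bases, and the median ratio of widths was 1.92. In the 600 pairs with 1 peak on each side the caSmad3 peak was wider in 533 (88.8%), with a median ratio of 1.78. Near rRNA, snRNA, snoRNA and tRNA genes the widths were closer, 469 and 662 bases at the median over 93 pairs, with a ratio of 1.22, and over the other 586 pairs the ratio was 2.09. The greatest ratio, 14.9, belonged to a control peak of 131 bases inside a caSmad3 peak of 1952 bases on chromosome 17 (59842579 to 59844530), which also held a control peak of 389 bases, with a ratio of 5.02. At the opposite end, a 391-base control peak on chromosome 13 (46295757 to 46296147) met a 140-base caSmad3 peak. Width depends on the depth and threshold of each library, neither of which the labels state, and their part in these widths was not tested.

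**Figure D2:**
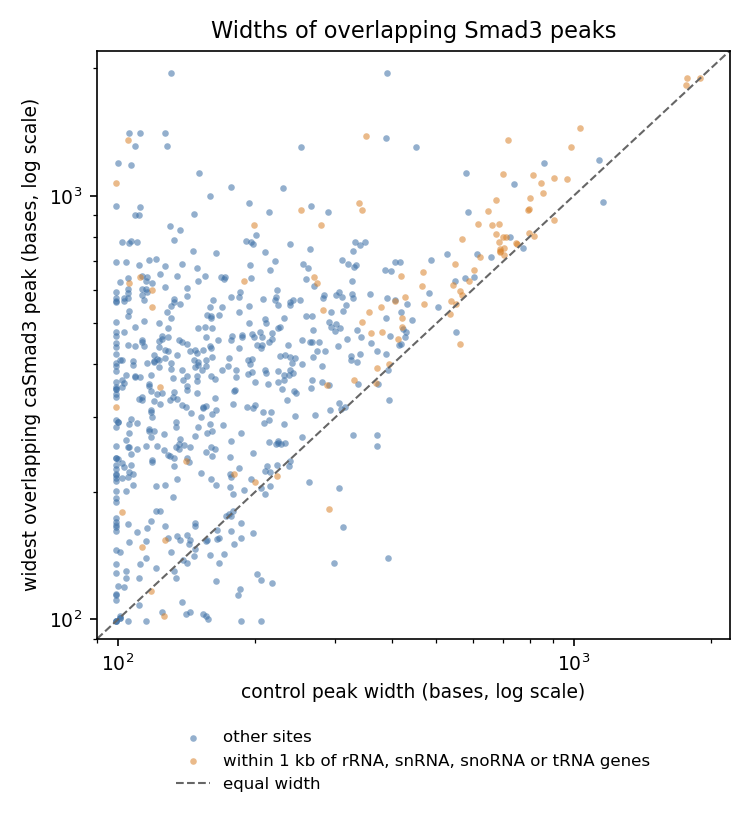
Width of each shared control peak (horizontal, bases, log scale) against the widest caSmad3 peak overlapping it (vertical, bases, log scale), 1 point for each of 679 pairs, with equal width dashed. Points lie above the line in 608 pairs, and pairs near rRNA, snRNA, snoRNA or tRNA genes (orange) lie closer to it, with a median ratio of 1.22.

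The widest control peaks lay at structural RNA genes. The 3 widest control peaks, of 1891, 1771 and 1761 bases, were on chromosome 21 over 18S ribosomal RNA genes (RNA18SN1, RNA18SN3 and RNA18SN2), and further wide peaks lay at U1 snRNA genes (RNU1-2 with 1033 bases, RNU1-3 with 985) and at the U3 snoRNA gene SNORD3A with 966. Such genes occur in many near-identical copies, so reads could be split among copies. In all, 93 of the 679 shared control peaks (13.7%) lay within 1 kb of an rRNA, snRNA, snoRNA or tRNA gene, 27, 53, 10 and 3 of each kind. The count was 0 of 107 for control-only peaks and 72 of 5391 (1.34%) for caSmad3-only peaks. Without these peaks 586 of 693 control peaks were shared (84.6%). Pseudogenes were not counted as structural RNA genes, so peaks over them remain among the 586. The widest of the 586 lay over the pseudogenes RNA18SP5 (1159 bases), RNU1-28P (1139) and RNU1-27P (861). All of these were also in the mock list and both IRF3 lists. Other wide shared peaks lay inside HHAT (776 bases, over the snRNA pseudogene RNU5A-8P), 6835 bases from SNX5 (741 bases), inside FRMD4A (660 bases) and 800 bases from ID3 (553 bases).

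Control peaks that were also listed after mock transfection were nearly all shared. Of the 238 control peaks that overlapped a Smad3 peak of mock-transfected cells, 236 were shared with caSmad3 cells (99.2%, 97.0 to 99.9), against 443 of the 548 that did not (80.8%, 77.3 to 84.1). The former were wider (median 302.5 against 131 bases). Among peaks of up to 150 bases the counts were 36 of 37 and 258 of 348 (74.1%), and among peaks over 300 bases 120 of 120 and 27 of 28. Control-only peaks overlapped a mock peak in 2 of 107 cases (1.87%) and caSmad3-only peaks in 70 of 5391 (1.30%).

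Peaks found in caSmad3 cells alone lay at gene ends more often than shared ones. A protein-coding gene began or ended within 1 kb of the peak centre for 1860 of 5391 caSmad3-only peaks (34.5%, 33.2 to 35.8), for 151 of 679 shared control peaks (22.2%, 19.2 to 25.6) and for 15 of 107 control-only peaks (14.0%, 8.06 to 22.1). In the caSmad3 list itself, 141 of the 650 shared peaks (21.7%) lay there. The gap differed by width. Among peaks over 300 bases the shares were 232 of 872 (26.6%) for caSmad3-only peaks and 92 of 432 (21.3%) for shared caSmad3 peaks, and up to 150 bases they were 37.0% and 24.1%. With the ends of all RefSeq genes counted, structural RNA genes included, the order of caSmad3-only and shared control peaks turned, with 42.6% and 44.0%. Peaks outside genes and not at an end made up 348 of the shared control peaks (51.3%), 57 of the control-only peaks (53.3%) and 1897 of the caSmad3-only peaks (35.2%).

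Start sites with a strand were known for 15842 of the 20037 protein-coding genes, with none on chromosome 8. Within 2 kb of a start lay 1678 of 5058 caSmad3-only peaks (33.2%), 137 of 622 shared control peaks (22.0%) and 17 of 99 control-only peaks (17.2%). The caSmad3-only peaks clustered on the start itself, 900 upstream and 771 downstream, with a median offset of -16.5 bases. The shared control peaks gave 74, 63 and -29 bases.

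**Figure D3:**
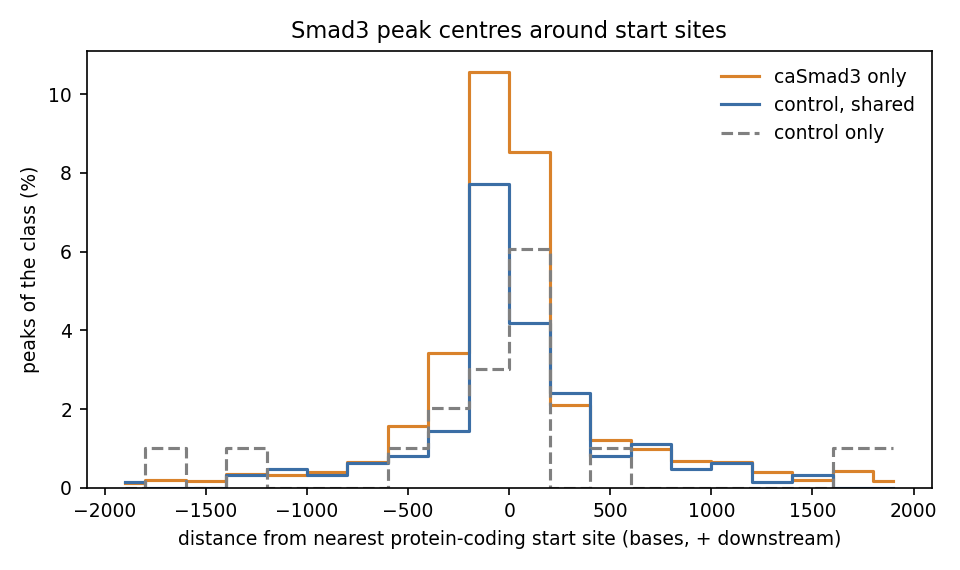
Share of peaks of each class (%) by distance of the peak centre from the nearest protein-coding start site in 200-base bins, with downstream positive. In the bin just upstream of the start lie 10.6% of caSmad3-only peaks (orange), 7.72% of shared control peaks (blue) and 3.03% of control-only peaks (grey, dashed, 99 peaks).

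Promoter letters were compared over windows of 250 bases before to 50 after the start, 15860 in all, of which 82 met a peak of both lists, 12 of the control list alone and 1131 of the caSmad3 list alone. Each motif was searched on both strands, and matches are letters, not sites. The Smad half-palindrome GTCTAG was found in 10 of the 82 promoters in both lists (12.2%, 6.01 to 21.3), in 6.01% of those in the caSmad3 list alone and in 5.23% of all. The shorter Smad element CAGAC, which is common by length alone, was found in 47.6%, 42.1% and 44.1%. The GC-rich Smad element GGCGC was found in 69.5% of promoters in both lists, 79.4% of those of caSmad3 cells alone and 62.6% of all, and the shares for another such element, GGCCG, were 68.3%, 73.5% and 61.2%. Median GC content was 62.0%, 64.0% and 62.7% in that order. The ETS motif CCGGAA was held by 36.6% of promoters in both lists and 42.1% of those of caSmad3 cells alone (39.2 to 45.0), beside 22.8% of all. The AP-1 motif TGANTCA was held by 3.66% (3 of 82, 0.761 to 10.3), 4.77% (3.61 to 6.18) and 5.76%. The share of all promoters lies inside both intervals, and the first is too wide to exclude a higher share. Sequence away from promoters was not searched. Shares for the GC box GGGCGG were 68.3%, 68.8% and 58.5%. The TEAD motif GGAATG gave 9.76%, 9.81% and 11.7%, and the NRF1 motif GCGCATGC gave 1.22%, 4.42% and 4.26%. The IRF motif GAAANNGAA was present in 11.0% of those in both lists, in 6.01% of those of caSmad3 cells alone and in 7.07% of all. The 12 promoters of the control list alone are too few to compare. Of these, 3 held the IRF motif (interval 5.49 to 57.2%), 1 the AP-1 motif, and 0 held GTCTAG or the TEAD motif.

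IRF3 peaks listed after polyI:C overlapped shared Smad3 peaks more often than Smad3 peaks of 1 list only over all widths. In control cells, 235 of 679 shared peaks (34.6%, 31.0 to 38.3) and 10 of 107 control-only peaks (9.35%, 4.57 to 16.5) overlapped an IRF3 peak of HA cells. Those IRF3 cells had received no TGF-beta. Control-only peaks were narrower. Up to 150 bases, 86 of 294 shared control peaks (29.3%) and 11 of 91 control-only peaks (12.1%) overlapped an IRF3 peak of caSmad3 cells. Structural RNA genes lay near 13.7% of shared control peaks, 0 of 107 control-only peaks and 1.34% of caSmad3-only peaks. IRF3 overlap without these sites was not computed. In caSmad3 cells, 255 of 650 shared peaks (39.2%, 35.5 to 43.1) and 1654 of 5391 caSmad3-only peaks (30.7%, 29.5 to 31.9) overlapped an IRF3 peak of caSmad3 cells. At gene ends the shares were 116 of 141 (82.3%) and 1293 of 1860 (69.5%), and away from them 139 of 509 (27.3%, 23.5 to 31.4) and 361 of 3531 (10.2%, 9.24 to 11.3). By width the order of the caSmad3 classes was not the same throughout. Up to 150 bases the shares were 39.7% of shared and 29.5% of caSmad3-only peaks, over 150 to 300 bases 40 of 160 and 729 of 2249 (32.4%), and over 300 bases 44.4% and 29.2%.

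By gene, control peaks lay within 10 kb of an end of 361 of 20037 protein-coding genes (1.8%) and caSmad3 peaks of 3362 (16.8%). Both lists had a peak at 337 genes (1.68%), which is 93.4% of the 361. Of these, 313 had a shared peak and 24 had different peaks in each list. The control list alone had a peak at 24 genes (0.12%) and the caSmad3 list alone at 3025 (15.1%). These percentages are the background for the gene groups that follow. Across 429 genes of 18 lists, 26 had a control peak (6.06%), 100 a caSmad3 peak (23.3%) and 22 both.

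**Figure D4:**
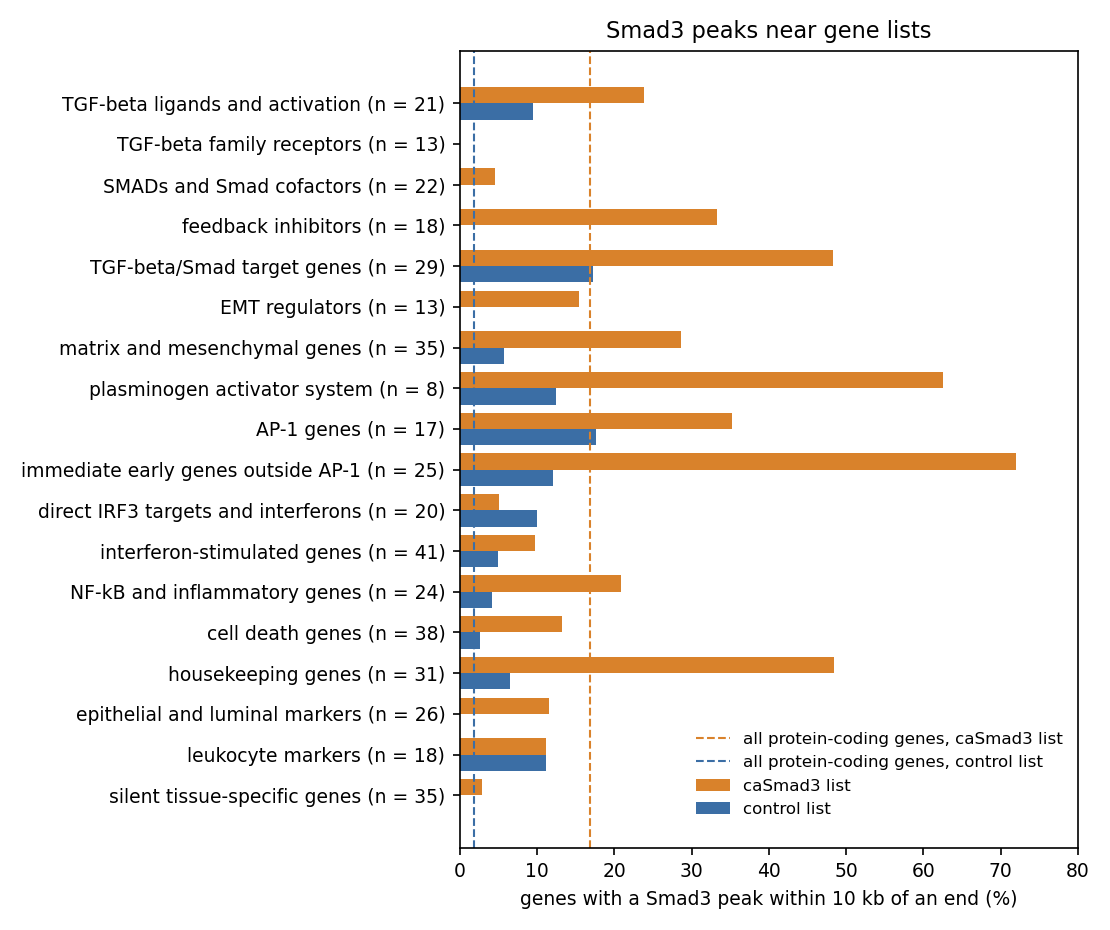
Share of genes (%) in each list with a Smad3 peak 10 kb or less from either end, in the caSmad3 list (orange) and the control list (blue). Dashed lines mark all protein-coding genes, 16.8% and 1.8%, and direct IRF3 targets and interferons have a longer bar for the control list, with 2 of 20 genes against 1.

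Of 21 genes for TGF-beta ligands and their activation, 2 had a control peak (9.52%, beside 1.8% of all genes), both also in caSmad3 cells, and 5 had a caSmad3 peak (23.8%, beside 16.8%). With the 786 widest caSmad3 peaks, 2 had one. LTBP2 (a latent TGF-beta binding protein family member of elastic fibres) had a control peak of 328 bases (chromosome 14, 74619772 to 74620099), 7535 bases upstream of its start, inside a caSmad3 peak of 575 bases. Nearer the start lay caSmad3-only peaks of 785 bases (74618065 to 74618849) and 353 bases. The 785-base peak was absent from the control list but overlapped a peak of mock-transfected cells. ITGB6, a subunit of the integrin that releases TGF-beta from its latent form, had control peaks of 155 and 109 bases (chromosome 2, 160205669 to 160205984 from end to end), both overlapping a single caSmad3 peak of 491 bases. The caSmad3 list alone had peaks at LTBP3, NRROS and THBS1. Of 13 receptor genes 0 had a peak within 10 kb of an end in either list, where 3 genes would make 23.1%. With peaks anywhere in the gene counted as well, 3 had a caSmad3 peak and 0 a control peak.

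Among 22 SMAD and cofactor genes, SP1 alone had a peak within 10 kb of an end, of 419 bases over its promoter in caSmad3 cells. With the gene bodies counted, 3 of the 22 had a caSmad3 peak and 1 a control peak. Feedback inhibitors limit Smad signalling and are themselves Smad targets. Of 18 such genes 6 had a caSmad3 peak near them (33.3%, against 16.8% of all genes) and 0 a control peak, where 3 genes would make 16.7%. At equal list length (the 786 widest caSmad3 peaks) 0 of the 18 had one in either list, beside 428 of all 20037 genes with a caSmad3 peak. SMAD7, the inhibitory Smad, had caSmad3 peaks of 149 and 176 bases beginning 1421 and 1748 bases upstream of its start. The others were SMAD6 (102 bases), SKI (206), SMURF2 (181), TGIF1 (109) and PMEPA1 (296). PMEPA1, which encodes a membrane protein that sequesters Smads, also had a shared peak inside the gene, 99 bases in the control list and 397 in caSmad3 cells, 12991 bases downstream of its start and so outside the 10 kb window.

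Of 29 classical Smad target genes, 14 had a caSmad3 peak (48.3%, beside 16.8% of all genes) and 5 a control peak (17.2%, beside 1.8%), and the 14 included the 5. With the 786 widest caSmad3 peaks, the number was 7. The 5 were CCN1, GADD45B, TGFBI, ID1 and ID3, and the 29 genes had 10 control peaks and 52 caSmad3 peaks near them.

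ID1 and ID3 encode inhibitors of helix-loop-helix factors. ID1 (chromosome 20) had the most control peaks of the 29 genes, with 136, 105, 315 and 341 bases, of which 3 were shared, and it had 7 caSmad3 peaks of 117 to 641 bases. The pair downstream of the gene (31606728 to 31607042 and 31607321 to 31607661) matched caSmad3 peaks of 317 and 465 bases. The 641-base caSmad3 peak spanned the start (-360 to 280 bases), where the control list had the 105-base peak printed above. The 136-base control peak, 2150 bases upstream, was not shared. At ID3 (chromosome 1) the site 800 bases beyond the gene was 553 bases in control cells and 477 in caSmad3 cells, among the sites that were wider in control cells, and it was also listed after mock transfection. ID3 also had a 207-base caSmad3-only peak over its start.

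GADD45B had 1 control peak, of 317 bases at its start (chromosome 19, 2476075 to 2476391), and 4 caSmad3 peaks, of which the one at the start was 552 bases. CCN1, which encodes a matricellular growth regulator (CYR61), had control peaks of 179 and 164 bases on chromosome 1, the first over the gene and the second 375 bases beyond it, and these sites were 323 and 733 bases in caSmad3 cells. A further 7 caSmad3 peaks of 99 to 224 bases lay at CCN1. The peak 8229 bases upstream of TGFBI, a gene named for its induction by TGF-beta, was 182 bases in control and 389 in caSmad3 cells.

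The 9 target genes with caSmad3 peaks alone included CCN2, singled out here because it is a much used reporter of the pathway. CCN2 (connective tissue growth factor) had 3, of 483, 354 and 237 bases, the last over its start (chromosome 6, 131951330 to 131951566), and all of them overlapped an IRF3 peak of caSmad3 cells. Of all caSmad3-only peaks at gene ends, 69.5% did. Others were GADD45A, ID2, CDKN2B, MYC, BHLHE40, LIF and TGM2, with widest peaks of 151 to 675 bases.

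**Figure D5:**
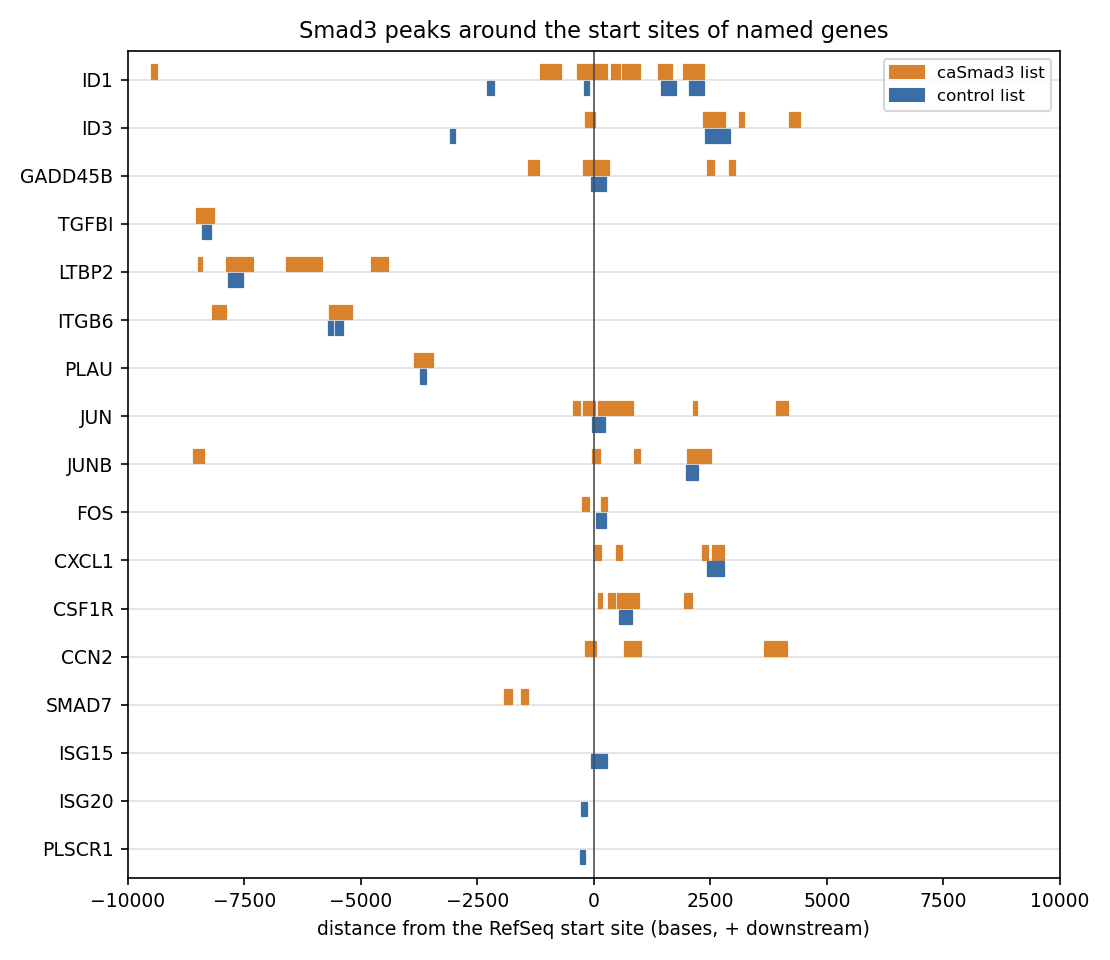
Smad3 peaks around the RefSeq start site (0, bases, downstream positive) of 17 named genes with a known strand, with caSmad3 peaks in orange above control peaks in blue. Blue bars overlap orange ones at GADD45B, TGFBI, ITGB6 and PLAU, CCN2 and SMAD7 have orange bars alone, and ISG15, ISG20 and PLSCR1 have blue bars alone.

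Matrix and mesenchymal genes gave 2 of 35 in control cells and 10 in caSmad3 cells (28.6%). COL1A1 (type I collagen) had control peaks of 265 and 99 bases, 5314 and 5628 bases below the gene, both inside a caSmad3 peak of 948 bases (chromosome 17, 50177956 to 50178903). MMP2, a gelatinase, had 156 bases in control and 396 in caSmad3 cells, 7793 bases below the gene. The widest peaks of caSmad3 cells alone included those at COL7A1 (642 bases), VIM (vimentin, 521) and ITGB1 (an integrin subunit, 337). In the plasminogen activator system, 5 of 8 genes had a caSmad3 peak and 1 a control peak. At equal list length 1 had a caSmad3 peak. The gene with a control peak was PLAU (urokinase), with 135 bases in control and 422 in caSmad3 cells, and its control peak ran from -3737 to -3603 bases from the start. Of 13 regulators of epithelial-mesenchymal transition, 0 had a control peak, and SNAI1 (172 bases) and TCF3 (470 bases) had a caSmad3 peak.

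AP-1 genes encode partners of Smad3 on DNA. Of 17, 3 had a control peak (17.6%) and 6 a caSmad3 peak (35.3%), and the 3 were in both. At equal list length the counts were 2 of 17 in caSmad3 cells and 3 in control cells, beside 428 and 361 of all 20037 genes. FOS was then without a caSmad3 peak. These counts are too few to order. The control peak at the start of JUN was 264 bases (chromosome 1, 58783819 to 58784082) and met caSmad3 peaks of 747 and 253 bases on either side of it. JUNB had 267 bases in control and 520 in caSmad3 cells beyond the gene, 1970 bases downstream of its start. At FOS the control peak, 206 bases inside the gene, was wider than its 124-base caSmad3 counterpart. JUND, FOSL1 and BATF2 had caSmad3 peaks alone, of up to 198, 232 and 99 bases. The shared sites at JUN, JUNB and FOS also overlapped IRF3 peaks in both IRF3 lists. These sites lay at gene ends. Of the 151 shared control peaks at gene ends, 120 (79.5%) overlapped an IRF3 peak of caSmad3 cells and 105 (69.5%) one of HA cells.

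Other immediate early genes, which respond within minutes to many stimuli, gave 3 of 25 in control and 18 in caSmad3 cells (72.0%), the highest share of any list there. Housekeeping genes gave 15 of 31 (48.4%), and 2 of 31 in control cells. IER2 was shared with 139 and 367 bases, and IER3 with 164 and 313. ZFP36L1, an mRNA decay factor, counted in both lists through different peaks. The widest of caSmad3 cells alone were at DUSP1 (372 bases), ZFP36 (352), MYC (342) and EGR1 (309). With the 786 widest caSmad3 peaks the 2 lists gave 1 of 25 and 2 of 31. Among housekeeping genes, POLR2A (148 bases in control cells, 147 in the caSmad3 peak that met it) and ENO1 (119 and 235 bases) were shared.

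Interferon genes with a control peak had no caSmad3 peak within 10 kb. Across the lists of direct IRF3 targets and interferons (20 genes) and of interferon-stimulated genes (41), 4 of 61 had a control peak (6.56%), 5 a caSmad3 peak (8.20%) and 0 both. Of all genes, 1.8% had a control peak, 16.8% a caSmad3 peak, 1.68% both and 0.12% a control peak alone. A count of 0 in both among 61 genes is therefore near the share of all genes. Within 50 kb 1 gene had both, and within 1 kb 2 genes, ISG15 and PLSCR1, had a control peak alone. Windows run from the ends of the gene record. That of ISG20 begins well upstream of its start site, so its peak near that start was not counted at 1 kb. In the other lists all 22 genes with a control peak also had a caSmad3 peak. ISG15 had a control peak of 355 bases from 70 bases upstream to 284 downstream of its start (chromosome 1, 1013427 to 1013781), the widest of the 107 control-only peaks, and the nearest caSmad3 peak lay 71776 bases away. ISG20, an antiviral exonuclease, had 118 bases from 266 to 149 bases upstream of its start (chromosome 15, 88638750 to 88638867). PLSCR1, an interferon-induced phospholipid scramblase, had 99 bases from 290 to 192 bases upstream (chromosome 3, 146544799 to 146544897). IRF2, a competitor of IRF1, had 99 bases, 3880 bases below the gene (chromosome 4, 184383751 to 184383849). The peaks at ISG15 and PLSCR1 overlapped IRF3 peaks in both IRF3 lists, that at ISG20 an IRF3 peak of HA cells only, and that at IRF2 none. None of the 4 was in the mock list. Peaks of 99 bases, such as those at PLSCR1 and IRF2, are the narrowest a list holds, and 51 of the 85 control peaks of that width were shared.

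The 5 interferon-related genes with caSmad3 peaks alone included TNFSF10 (the death ligand TRAIL, 219 bases), IFI35 (293), SOCS3 (251) and TRIM25 (112). With the 786 widest caSmad3 peaks 0 of the 61 genes had one, beside 428 of all 20037 genes.

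The 24 genes with a control peak alone, the 4 interferon genes among them, rested mostly on narrow peaks. They shared 17 peaks, of 99 to 355 bases. Besides ISG15 and its neighbour AGRN, which shares the peak, they included LOC124903573 (173 bases), TLE3 (a transcriptional corepressor, 158), RAPGEF2 (137), SOWAHD (136) and the olfactory receptor genes OR6K2 and OR6K3 (128). C19orf85 and ISOC2 shared a peak of 119 bases, AEN the one at ISG20, SHKBP1 and SPTBN4 one of 106, and ABCE1 and ANAPC10 one of 105. HSP90B1 (an endoplasmic reticulum chaperone), MYO1E, KIF16B, and NOL9 with PLEKHG5 had peaks of 99 bases. Of the 17 peaks 6 overlapped an IRF3 peak of HA cells and 6 one of caSmad3 cells, with 5 in both. The shares of all 786 control peaks were 31.2% and 34.6%, near those of the 17, and of all 107 control-only peaks 9.35% and 12.1%. Among the 15 control-only peaks at gene ends the counts were 5 and 8. The 5 peaks in both IRF3 lists were at ISG15, PLSCR1, ABCE1, HSP90B1 and MYO1E, the last 3 with centres -106, 26 and 75 bases from the start.

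Inflammatory and cell death genes gave 1 control gene each, both also in caSmad3 cells. Of 24 NF-kB and inflammatory genes 5 had a caSmad3 peak (20.8%), and CXCL1 (a neutrophil chemokine) was in both, with a control peak of 370 bases beyond the gene that met caSmad3 peaks of 257 and 124 bases. CCL20 (396 bases), NFKBIB (274), CXCL2 (191) and CCL2 (124) had caSmad3 peaks alone. Of 38 cell death genes 5 had a caSmad3 peak (13.2%), and MCL1, which protects cells from apoptosis, had 159 bases in control and 441 in caSmad3 cells. BAX, BAD, BCL2L1 and TNFSF10 had caSmad3 peaks alone, of 101 to 219 bases.

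Among the lists of other cell types, the leukocyte list alone had genes with a control peak. Of all protein-coding genes, 1.8% had a control peak and 16.8% a caSmad3 peak. Of 26 epithelial and luminal genes 3 had a caSmad3 peak, CDH1 (104 bases), GATA3 (214) and RAB25 (197), and 0 a control peak. Of 35 silent tissue-specific genes TG alone had one, in caSmad3 cells. Of 18 leukocyte genes, CD68 (105 and 604 bases) and CSF1R (268 and 483 bases) had a peak in both lists. These make 11.1% in each list, above the share of all genes for the control list and below it for the caSmad3 list. The CD68 site lies 6865 bases upstream of its start, and its control peak has its centre within 1 kb of an end of another protein-coding gene. That peak also overlapped IRF3 peaks in both IRF3 lists, so it need not belong to CD68.

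The widest sites of caSmad3 cells alone were mostly outside the lists. They lay inside VAV2 (1203 bases, chromosome 9, 133873736 to 133874938), over LINC01091 (1022 bases), 84 bases from PDCD1LG2 (907 bases, over INCR1), and inside TNRC6A (900 bases), PKIG (817 bases) and CFAP57 (767 bases). The VAV2 site overlapped a Smad3 peak of mock-transfected cells. A peak of 781 bases covered the histone gene H2BC12, and 769 bases lay 18387 bases from COL6A3, a collagen gene. After ISG15 the widest control-only peaks lay 29105 bases from GRHL3 (227 bases), inside SHLD1 (225), inside DENND3 (215), 86827 bases from GIPC2 (214), 83124 bases from DACT1 (203) and 3810 bases from RPL3 (199), and of these 6 the one inside SHLD1 overlapped a mock peak and 0 overlapped an IRF3 peak.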

How the data were processed

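The 5 libraries were anti-Smad3 or anti-IRF3 ChIP-seq of BT549 cells, with 15 PCR cycles per the labels' protocols. Bowtie2 2.2.2.6, MACS2 2.1.0 and build hg38 are named in the submitters' processing notes, and peak thresholds and input controls are not stated there. For each sample the authors deposited 1 list of peaks, not pooled, and the deposited values are positions in bases, with no score or depth. The interval of a share covers counting error only and treats peaks as independent. Neighbouring peaks need not be, as 71 control peaks shared 34 caSmad3 peaks among them. Reads after PCR are not independent molecules, which the interval does not cover either.

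Overlaps were computed with pandas 2.3.3 and Python 3.11.15 and checked with bedtools 2.31.1, intervals with scipy 1.17.1, and the overlap code was tested on simulated data. Genes came from a RefSeq table of GRCh38.p14, an update with unchanged hg38 coordinates, matched by symbol (429 of 430 list genes). Start sites and strands came from RefSeq promoters, which do not cover every gene. Above and below refer to coordinates. Without strand, the nearer gene end was used, with a window of 10 kb for genes and 1 kb for gene ends. Exons and introns were not used here.

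No test between groups of 1 library was made, and lists are described by counts beside all genes. The comparison and the 18 gene lists were chosen with earlier results of these data known. Named genes were the TGF-beta list members with a control peak, up to 4 of each other list with the widest peaks, genes with a control peak alone, and genes at the 10 widest peaks of each class. The caSmad3-only target and feedback genes and the ISG15 sequence were chosen after their values were seen. FOS met the rule for printed promoters but had 0 bases before its start under both lists. Other overlap rules, windows, peak widths and gene sets were tried as alternatives. Some genes that met the rule are not reported here.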

Additional observations from a re-analysis of the deposited data

How the results depend on the processing

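No paired analysis was possible because each group held 1 library. The share of control peaks that were shared was 39.9% with 50% reciprocal overlap, 89.1% with gaps of up to 500 bases, 89.0% without peaks of minimum width and 49.7% against the widest caSmad3 peaks, equal in number to the control list. For the caSmad3 list the first, second and last of these gave 5.20%, 13.5% and 45.3%, leaving out structural RNA sites 9.54%, and merging peaks within 1 kb 11.7%. Gene-end shares with all RefSeq genes were 23.4% (control only), 44.0% (shared) and 42.6% (caSmad3 only). For caSmad3-only peaks, start sites alone gave 30.2% and the wider 50% of peaks 32.0%. Genes with a control peak numbered 177 at 1 kb, 987 at 50 kb and 173 with the wider 50% of peaks. Those with a caSmad3 peak numbered 2121, 6581 and 1809, and 428 at equal list length. Those with both numbered 164, 937, 159 and 192. Shared control peaks with an IRF3 peak of HA cells were 18.3% at 50% overlap and 44.8% in the wider 50%. List genes with a caSmad3 peak numbered 170 at 50 kb and 26 at equal length, and with a control peak 15 at 1 kb and 47 at 50 kb. Smad targets with a caSmad3 peak numbered 7 at equal length. Interferon genes with a control peak alone numbered 2 at 1 kb, those in both lists 1 at 50 kb, and those with a caSmad3 peak alone 2, 11 and 0 at 1 kb, 50 kb and equal length. The cause of these moves was not tested beyond their construction. Counting peaks anywhere in a gene, chosen after seeing the data, gave 506, 3986 and 471 genes with a control peak, a caSmad3 peak and both. Depth is unknown, so absent peaks are not absent binding.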

Other observations

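MicroRNA hairpins were also within reach of these sites. Of 54 hairpins within 1 kb of a Smad3 peak, 7 were near a control peak and 6 of those near a caSmad3 peak as well, while 47 were near a caSmad3 peak alone. Of all peaks, 86.4% of the control list and 10.8% of the caSmad3 list were shared. The split at hairpins is near these shares, but hairpins and peaks are unlike units. With 7 hairpins near a control peak, no trait of microRNA genes can be read from it, and none was tested. MIR3193 lies in the cluster of shared sites downstream of ID1 (chromosome 20, 31607186 to 31607240). MIR3652 was near a control peak alone, the 99-base peak at the start of HSP90B1. The hairpins of caSmad3 cells alone, picked here after their values were seen, included MIR21 (chromosome 17, 59841266 to 59841337), the cluster of MIR23A, MIR27A and MIR24-2 on chromosome 19, and MIR193A on chromosome 17. MIR21 is a well-known oncogenic microRNA whose processing is promoted by Smads, and a caSmad3 peak of 1952 bases that held 2 control peaks, of 131 and 389 bases, lay beyond the 1 kb window from it (59842579 to 59844530).

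Chromosome 21 held 39 control peaks, all of them shared, and 81 caSmad3 peaks. On chromosome 4, 10 of 19 control peaks were shared, and on chromosome 18, 1 of 4, the lowest counts beside their totals. These shares rest on few peaks and were not tested.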
